A study of Mus musculus with 2 samples.

Results

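The genes described here are 10 genes of prohormone processing and dense-core granules, out of 24905 genes in the count table: Cpe, Pcsk1, Pcsk1n, Pcsk2, Pam, Chga, Chgb, Scg2, Scg5 and Cadps2. They were chosen by name for what their proteins do, with earlier results of these data known, and all 10 were measured in both libraries. Their levels were read in groups of neurons defined by 7 other genes (Avp, Oxt, Crh, Trh, Foxb1, Neurod6 and Tcf7l2), and against the summed peptide hormone transcripts of each cell.

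The study measured RNA in single cells by Drop-seq, a droplet method that counts the 3' ends of transcripts by unique molecular identifiers (UMIs). Viable tdTomato-positive cells were sorted from the hypothalamus of CD-1 mouse pups at postnatal days 1 to 4. The control library came from Sim1-Cre;tdTomato+/- pups, and the other library from Sim1-Cre;tdTomato+/-;Sim1+/- pups, which also lack 1 working copy of Sim1, a transcription factor of the paraventricular nucleus. Both groups therefore carry Sim1-Cre and the reporter, which marks cells that express or once expressed Cre from Sim1 control, and 6 pups were pooled for each genotype by the sample labels (5 to 6 mice by the protocol).

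With 1 library per genotype, genotype and library cannot be told apart, and no test between genotypes was possible. Values below are sums of UMIs over cells, given as CPM (UMIs of the gene per 1000000 UMIs of those cells) with exact Poisson 95% intervals. Ratios carry exact binomial 95% intervals. All intervals cover counting error only: they leave out the spread between cells and between animals. A difference is called where it is at least 1.5-fold.

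Peptide hormones are made as long precursors that enter the secretory pathway and are cut inside dense-core granules. The endoproteases PC1/3 (Pcsk1) and PC2 (Pcsk2) cut at basic residues, carboxypeptidase E (Cpe) trims the basic residues left behind, and Pam amidates the C-terminus of peptides such as vasopressin and oxytocin. ProSAAS (Pcsk1n) and 7B2 (Scg5) bind PC1/3 and PC2, 3 granins (Chga, Chgb, Scg2) are bulk cargo of the granules, and Cadps2 takes part in their release.

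The 2 libraries held 6525080 and 5397693 UMIs (control and heterozygous) in 2807 and 2476 cell barcodes, with 0 barcodes shared. After a filter of 300 genes per cell, 2743 control and 2357 heterozygous cells were neuron-like, with medians of 1792 and 1643 UMIs. Another 48 and 55 cells were glia-like, with medians of 1267 and 879 UMIs. Of 7 pituitary markers 5 were in the table, and they gave 2230 UMIs in 954 control neuron-like cells and 2 UMIs in 2 heterozygous cells, with Lhb and Pitx1 at 0 in the control. Their summed level was 190 to 387 CPM in the control groups and at most 0.455 CPM in the heterozygous groups. All pairs of gene and gate called below stayed called without the cells with at least 5 such UMIs. This left out few cells (the control Avp gate kept 96 of 97 and the Foxb1 gate 651 of 654), so cells with fewer pituitary UMIs remained and their part was not tested.

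Neurons were gated on raw UMIs of the cell: at least 10 for Avp or Oxt (whichever was larger), 3 for Crh or Trh, and 2 for Foxb1, Neurod6 or Tcf7l2. Cells that passed several gates (20 control and 6 heterozygous) were left out. This gave, in control and heterozygous cells, 97 and 22 Avp, 18 and 2 Oxt, 23 and 32 Crh, 42 and 33 Trh, 654 and 862 Foxb1, 50 and 29 Neurod6, and 113 and 19 Tcf7l2 cells. Cells that passed no gate numbered 1726 and 1352. Marker genes not used for gating were high in most gates. The paraventricular list (Sim1, Otp, Pou3f2, Nr3c1) stood at 1379 and 954 CPM in the Avp gate against 672 and 567 CPM in cells with no gate. The neuron markers were lower in the Avp gate than with no gate, at 11018 and 13163 CPM against 24253 and 21594 CPM, and their part in the results of that gate was not tested. The mammillary list stood at 936 and 1019 CPM in the Foxb1 gate against 298 and 370 CPM. The check genes for Trh, Fezf1 and Nkx2-4, were not higher in the Trh gate (7 and 5 UMIs, the latter 34.5 CPM) than in cells with no gate (98.8 and 93.0 CPM), so that group is named by its gate alone. The Oxt gate of the heterozygous library holds 2 cells, so calls that include it rest on few UMIs, and levels are given for a wider gate.

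Of the 10 genes, 9 had a promoter sequence in RefSeq's table for GRCm38.p6 (250 bases before to 50 after the start). A full cAMP response element, TGACGTCA (its own reverse complement), lay in the promoters of 3 of these 9, Scg2, Chgb and Pcsk1, and in 1.79% of all 32851 promoters of this length. Chga held the 1-letter variant TGACGTAA, found on either strand in 0.499% of promoters. Neither form was found in the promoter of Pcsk2, the other endoprotease gene. The 4 stretches are shown 5' to 3' on the gene's strand, with the element in capitals. They were picked because they hold the element or its variant close to RefSeq's start, in Pcsk1 and the granin genes.
Scg2: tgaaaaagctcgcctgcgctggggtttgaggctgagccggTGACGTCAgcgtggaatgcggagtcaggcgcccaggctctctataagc
Chgb: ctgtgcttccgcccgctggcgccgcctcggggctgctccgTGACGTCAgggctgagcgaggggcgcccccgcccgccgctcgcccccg
Pcsk1: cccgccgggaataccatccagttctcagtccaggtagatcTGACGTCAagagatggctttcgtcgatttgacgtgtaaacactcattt
Chga: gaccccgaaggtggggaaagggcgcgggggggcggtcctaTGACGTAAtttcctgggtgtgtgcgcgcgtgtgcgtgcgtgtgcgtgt
They lie at chr1:79440047-79440134 (minus strand), chr2:132781530-132781617 (plus), chr13:75089739-75089826 (plus) and chr12:102554857-102554944 (plus). The elements end 61, 65, 71 and 37 bases before RefSeq's start. By the gene positions given below, which differ from RefSeq's start, the elements of Scg2 and Chgb lie inside the gene. A match of letters is a description of the sequence and shows no binding.

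The first question was which neuron groups carry most of each gene, taking each library separately and comparing each gate with the cells of the same library that pass no gate. Among groups of at least 20 cells, neurons gated on Avp had the most Pcsk1. Pam was higher in the Avp, Oxt and Trh gates than in cells with no gate, while Scg2 was low in the Avp, Oxt, Foxb1 and Tcf7l2 gates. Of 70 pairs of a gene and a gate, 8 were called higher and 9 lower in both libraries, and 3 of the 9 rest on Cadps2 at 0 or 1 UMIs, where a 1.5-fold difference was not detectable at this depth. The higher calls are 11.4% of the pairs, against a mean of 3.95% of all genes over the 7 gates, and the lower calls 12.86%, against 12.98% (3.77 to 29% by gate), so the number of lower calls lies at the background. All 7 gates share the same reference cells, so their ratios are not independent.

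**Figure D1:**
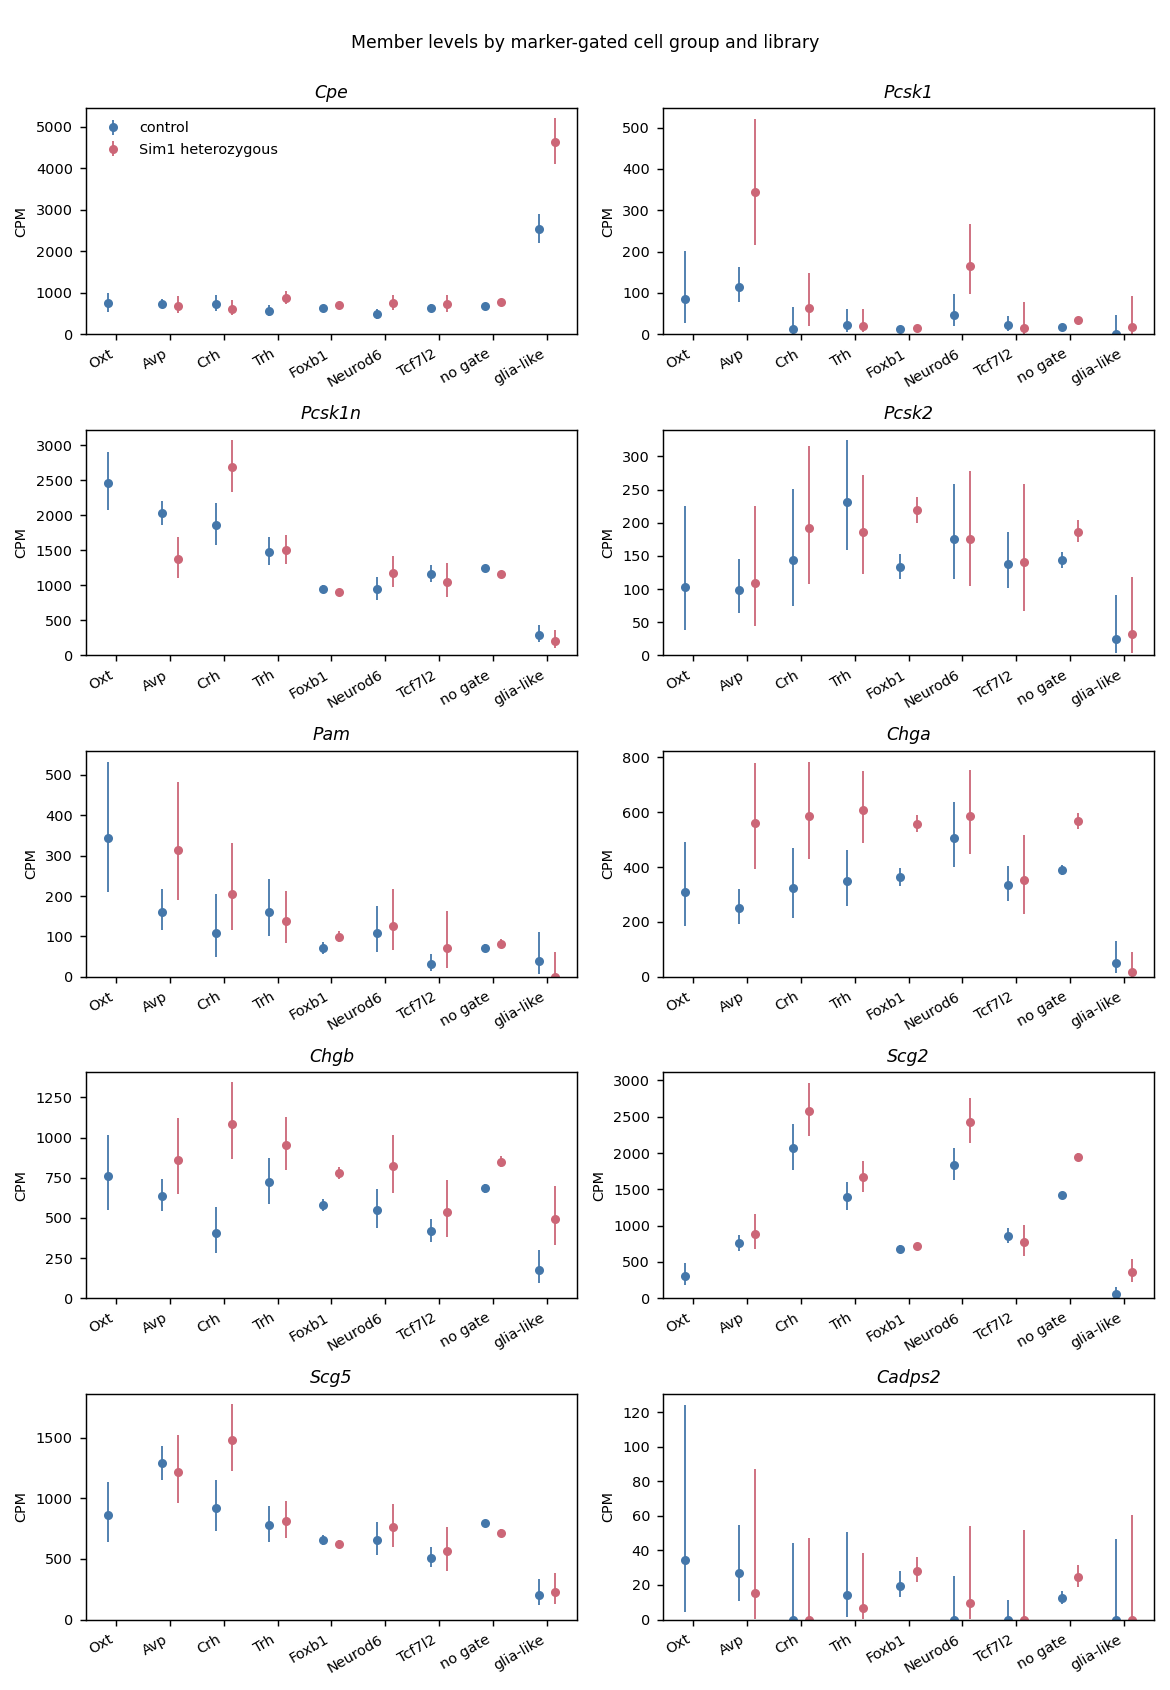
Level of each gene in CPM (y axis, from 0) in each gated neuron group, in neurons that pass no gate and in glia-like cells, for the control (blue) and Sim1 heterozygous (red) library. Points are the CPM of summed UMIs and bars exact Poisson 95% intervals. Groups under 10 cells are left out. Pcsk1 is highest in the Avp gate in both libraries, Scg2 lies at 683 and 726 CPM in the Foxb1 gate against 1421 and 1946 CPM with no gate, and Cpe is highest in glia-like cells.

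Pcsk1 (chr13:75089826-75134861, plus strand, mm10 as are all gene positions below), the endoprotease PC1/3, differed the most between groups. The Avp gate held 114 CPM in the control library (77.1 to 163, 30 UMIs) and 344 CPM in the heterozygous library (216 to 521, 22 UMIs). Cells with no gate held 18.2 and 34.5 CPM. The Avp gate was thus higher by a log2 ratio of 2.65 (1.99 to 3.29) and 3.32 (2.58 to 4.00), and the intervals of the gate and of cells with no gate did not overlap in either library. For the Avp gate, 4.88% of 9492 genes tested were called higher in both libraries and 19.8% lower, and 3 of the 10 genes were called higher (Pcsk1, Pam and Scg5) and 1 lower (Scg2). The Pcsk1 UMIs came from 20 of 97 control and 9 of 22 heterozygous Avp cells, with at most 3 and 7 in a single cell. The Avp gate held 4.08% and 1.21% of all neuron-like UMIs but 21.0% and 12.8% of all Pcsk1 UMIs.

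The Neurod6 gate was next for Pcsk1, at 47.4 CPM (7 UMIs) in the control library and 166 CPM (17 UMIs) in the heterozygous library. Its log2 ratios over cells with no gate were 1.38 (0.02 to 2.50) and 2.27 (1.43 to 3.03). Of the heterozygous UMIs, up to 6 came from 1 cell, and with a gate of 4 Neurod6 UMIs the ratio there was 0.16. At equal depth the control ratio was 0.35, so the call was lost under both of these settings. The Neurod6 gate had 2 genes called higher (Pcsk1 and Pam) and 1 lower (Cadps2), against 3.02% of genes higher and 9.46% lower. Peptide hormone genes made up 0.0907% and 0.136% of the UMIs of these cells, against 0.341% and 0.216% with no gate.

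The Foxb1 gate, the mammillary group, held 11.7 CPM of Pcsk1 (17 UMIs) in the control and 13.6 CPM (30 UMIs) in the heterozygous library, the lowest values among groups of at least 20 cells. The Crh gate of the control library, at 12.0 CPM on 1 UMI, cannot be told from it. The log2 ratios of Pcsk1 in the Foxb1 gate were −0.63 (−1.49 to 0.15) and −1.34 (−1.98 to −0.73), and the control interval includes 0. For the Foxb1 gate 3.09% of 11173 genes were called higher and 3.77% lower, and 2 of the 10 genes were called lower, Pcsk1 and Scg2. The Crh and Trh gates held 1 to 5 Pcsk1 UMIs in each library and could not be ordered against each other.

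Because the Oxt gate held few cells, a wider gate was also read, chosen after the data were seen: all cells with at least 10 Oxt UMIs, whatever their Avp UMIs. It held 69 control and 10 heterozygous cells, of which 50 and 8 also had at least 10 Avp UMIs. Cells of the Avp gate with at least 10 Oxt UMIs are counted again here. The levels of the wider gate are thus not separate from those of the Avp gate and do not stand for oxytocin neurons alone. Pcsk1 stood at 108 CPM (71.1 to 157) and 497 CPM (315 to 745) there, and Pam at 196 CPM (145 to 259) and 497 CPM (315 to 745). Scg2 stood at 523 CPM (438 to 621) and 1166 CPM (876 to 1522), below the cells with no gate in both libraries. In the narrow Oxt gate of 18 and 2 cells the same 3 genes were called, 2 higher and 1 lower, against 4.02% higher and 29% lower of all genes. Pcsk1 stood at 86.1 CPM on 5 UMIs in its 18 control cells, and at equal depth 0 of these cells had a Pcsk1 UMI.

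Pcsk2 (chr2:143546156-143816285, plus strand), the endoprotease PC2, varied less. Its levels ran from 99.1 CPM (Avp) to 231 CPM (Trh) in the control library and from 109 CPM (Avp) to 219 CPM (Foxb1) in the heterozygous library, over groups of at least 20 cells. Pcsk2 was called in no gate, and the Avp gate was the lowest group in both libraries, with log2 ratios of −0.54 (−1.16 to 0.03) and −0.77 (−2.09 to 0.28). Both intervals include 0, so the position of the Avp gate at the bottom was not beyond counting error. The 2 endoproteases were read in few of the same cells at equal depth: of 43 control cells with a Pcsk1 UMI, 2 had a Pcsk2 UMI (4.65%, exact binomial interval 0.568 to 15.8%), against 11.6% of cells without one. In the heterozygous library these shares were 9.52% (2.66 to 22.6%) and 14.7%, and the intervals overlap in both. Pcsk2 exons overlap the antisense genes Pcsk2os1 and Pcsk2os2 in GENCODE, and reads of the strands cannot be told apart here. Pcsk2os1 held 223 UMIs in neuron-like cells.

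Pcsk1n (chrX:7919822-7924410, plus strand), which encodes the PC1/3 inhibitor proSAAS, was read in 58.7% of control and 54.2% of heterozygous neuron-like cells at an equal depth of 857 UMIs, and in 27.1% and 25% of glia-like cells. Among groups of at least 20 cells its 3 highest in both libraries were the Avp, Crh and Trh gates. Its exons overlap Eras on the opposite strand. The Avp gate stood at 2027 CPM (1858 to 2207) and 1376 CPM (1103 to 1695), the Crh gate at 1854 CPM (1574 to 2170) and 2684 CPM (2333 to 3073), and the Foxb1 gate at 954 CPM (904 to 1006) and 904 CPM (865 to 945). In the control library the Avp and Crh intervals overlap, whereas in the heterozygous library the Crh gate lay above the Avp gate. The log2 ratios over cells with no gate were 0.69 and 0.25 for Avp and 0.57 and 1.22 for Crh, so Pcsk1n reached 1.5-fold in 1 library only for each.

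Scg5 (chr2:113776362-113829121, minus strand), which encodes the PC2 chaperone 7B2, was called higher in the Avp gate. It stood there at 1288 CPM (1154 to 1433) and 1219 CPM (964 to 1522), against 796 and 711 CPM with no gate, log2 ratios of 0.69 (0.53 to 0.86) and 0.78 (0.43 to 1.11). At least 1 Scg5 UMI was found in 92 of 97 and 21 of 22 Avp cells. With cells thinned to equal depth, the heterozygous ratio was 0.51, under the 1.5-fold line. The Crh gate of the heterozygous library reached 1483 CPM (1225 to 1778) and that of the control library 921 CPM (727 to 1151), where its ratio of 0.21 to cells with no gate was within counting error.

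Pam (chr1:97795114-98095646, minus strand), the amidating enzyme, was higher in the Avp gate, at 160 CPM (115 to 216, 42 UMIs) and 313 CPM (191 to 483, 20 UMIs) against 71.9 and 82.3 CPM with no gate. The log2 ratios were 1.15 (0.65 to 1.63) and 1.93 (1.19 to 2.59). Of the 20 heterozygous UMIs, 7 came from 1 cell. The Trh gate stood at 161 CPM (102 to 242) and 138 CPM (84.4 to 213), log2 ratios of 1.16 (0.48 to 1.78) and 0.75 (0.01 to 1.41), and this was the only call in the Trh gate, where 3.76% of genes were called higher and 9.27% lower. The call was lost in 4 of 11 other settings, each time in the heterozygous library. The call in the Neurod6 gate (ratios of 0.59 and 0.62, both with intervals that include 0) was lost in 7 of 11. Levels of the Avp and Trh gates in the control library, 160 and 161 CPM, do not differ beyond counting error. Pam also shares exons on the same strand with B230216N24Rik (136 UMIs) and holds the pseudogene Gm3531 (512 UMIs) in its span, so reads between them may be split.

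Cpe (chr8:64592542-64693054, minus strand), the carboxypeptidase, was even among neurons: 481 CPM (Neurod6) to 732 CPM (Avp) in the control library, and 613 CPM (Crh) to 864 CPM (Trh) in the heterozygous library, over groups of at least 20 cells. It was called in no gate, and the order of the groups differed between libraries. It was the 1 gene of the 10 with a higher level in glia-like than in neuron-like cells. Glia-like cells held 2530 CPM (2191 to 2907) in the control library and 4633 CPM (4109 to 5206) in the heterozygous library, against 655 CPM (635 to 675) and 739 CPM (716 to 762) in neuron-like cells. At the depth of 857 UMIs, 68.8% and 75% of glia-like cells had a Cpe UMI, against 40.4% and 44.4% of neuron-like cells. At most 21 and 28 of the 199 and 283 glial Cpe UMIs came from 1 cell.

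Pcsk1n, Pcsk2, Chga, Chgb, Scg2 and Scg5 were lower in glia-like than in neuron-like cells in both libraries, with intervals that did not overlap. Scg5 had 203 and 229 CPM there against 773 and 692 CPM in neurons, and Pcsk1n 292 and 213 CPM against 1231 and 1086 CPM. Of the 22 Scg2 and 30 Chgb UMIs of heterozygous glia-like cells, 17 and 26 came from 1 cell each. For Pcsk1 (0 and 1 UMI) and Cadps2 (0 in both) a difference was not detectable at this depth, since 3 UMIs would be 38.1 and 49.1 CPM. Pam had 3 and 0 UMIs, and its control interval (7.87 to 111 CPM) holds the neuronal level, whereas in the heterozygous library 3 UMIs would be 49.1 CPM, under the 96.5 CPM of neurons (88.3 to 105). For genes other than Cpe, which was higher in glia-like cells, these glial values are a rough background for reading shares of neurons with a UMI.

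Among the granins, Scg2 (secretogranin II, chr1:79434669-79440120, minus strand) put the 6 groups with at least 20 cells in both libraries in the same order. The Foxb1 gate held 683 CPM (641 to 727) and 726 CPM (691 to 762), against 1421 CPM (1384 to 1459) and 1946 CPM (1892 to 2000) with no gate. The log2 ratios were −1.06 (−1.16 to −0.96) and −1.42 (−1.50 to −1.34). The UMIs came from 315 of 654 and 446 of 862 Foxb1 cells, and at equal depth Scg2 was found in 32.4% and 32.6% of Foxb1 cells against 55.0% and 60.6% of cells with no gate. The share in glia-like cells was 2.08% and 10.7%.

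Scg2 was also lower in the Avp gate, at 754 CPM (653 to 867) and 891 CPM (675 to 1155), ratios of −0.91 and −1.13. In the control library that ratio was −0.29 when cells that pass several gates were kept, and −0.51 at equal depth, both under 1.5-fold. The Crh gate was at the top, at 2069 CPM (1772 to 2402) and 2582 CPM (2238 to 2963), with the Neurod6 gate at 1841 CPM (1629 to 2073) and 2431 CPM (2139 to 2753). These neighbours do not differ beyond counting error, and neither reached 1.5-fold over cells with no gate. In the Crh gate 4.74% of genes were called higher and 11.7% lower, and the 1 call among the 10 genes was Cadps2 at 0 UMIs in both libraries.

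Chga (chr12:102554969-102565028, plus strand) and Chgb (chr2:132781278-132795079, plus strand), the chromogranins A and B, were flatter. Chga ran from 251 CPM (Avp) to 508 CPM (Neurod6) in the control library and from 558 CPM (Foxb1) to 608 CPM (Trh) in the heterozygous library over groups of at least 20 cells, and was called in no gate. Chgb was called lower in the Tcf7l2 gate, the thalamic group, at 419 CPM (351 to 495) and 534 CPM (378 to 733) against 683 and 850 CPM with no gate. Its log2 ratios were −0.71 (−0.97 to −0.46) and −0.67 (−1.17 to −0.21). Scg2 was lower there too, at 859 and 773 CPM, ratios of −0.73 and −1.33. In the Tcf7l2 gate 4.14% of genes were called higher and 7.88% lower, and of the 10 genes 3 were called lower, the third being Cadps2 at 0 UMIs.

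Cadps2 (chr6:23262773-23839421, minus strand), which primes granules for release, had 87 and 129 UMIs over all neuron-like cells. Most lay in cells with no gate (48 and 64) and in the Foxb1 gate (28 and 62), where the level was 19.3 CPM (12.9 to 28.0) and 28.2 CPM (21.6 to 36.1). The 0 UMIs of the Tcf7l2 gate allow up to 9.24 CPM in the control library (3 UMIs), under the 12.3 CPM of cells with no gate, and up to 42.2 CPM in the heterozygous library, which is above the 24.5 CPM there. A lower level in the other groups was not detectable at this depth.

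**Figure D2:**
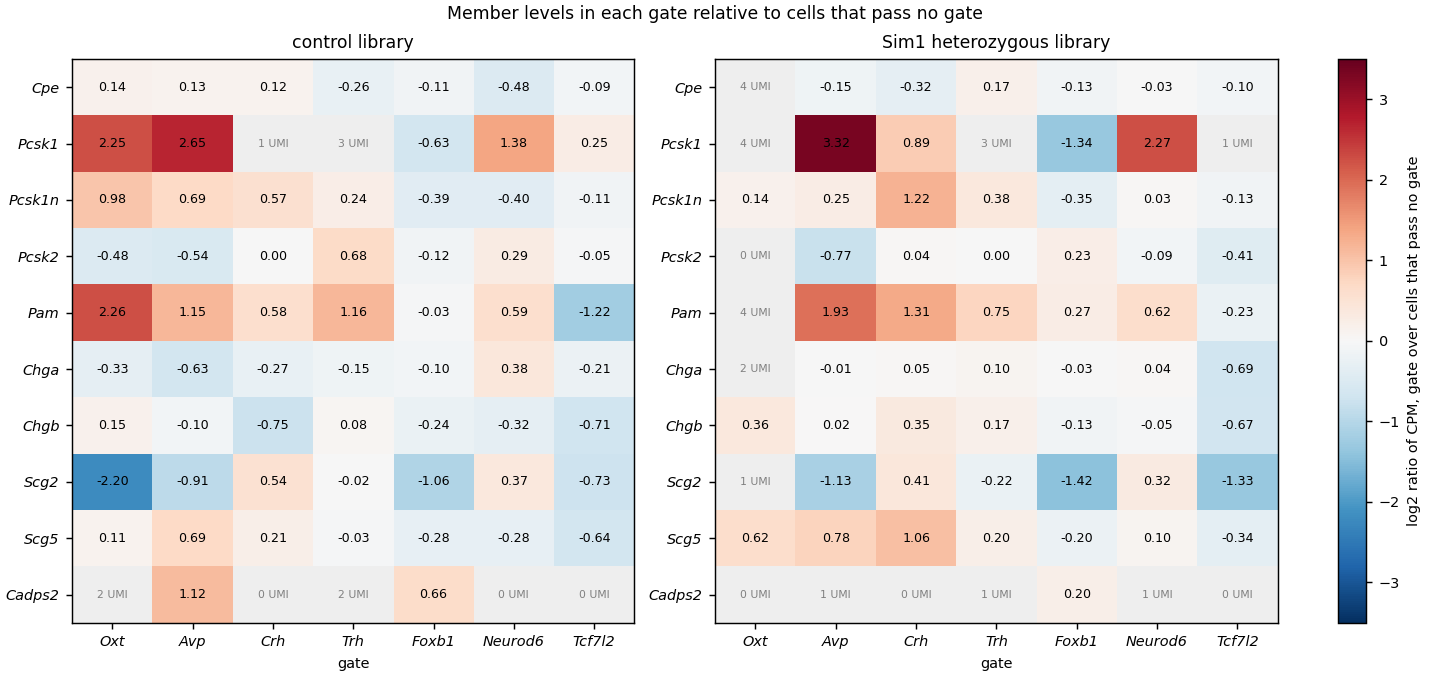
Log2 ratio of CPM in each gate (columns) over cells that pass no gate for each gene (lines of the grid), in the control (left) and Sim1 heterozygous (right) library. Red is higher and blue lower, and grey fields give the UMIs where there were fewer than 5. Pcsk1 and Pam are red in the Avp gate of both libraries, and Scg2 is blue in the Avp, Foxb1 and Tcf7l2 gates of both.

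How far the 2 libraries gave the same order of groups differed between genes. Over the 7 groups other than Oxt, Pearson's r between the libraries' levels was 0.98 for Scg2, 0.85 for Pcsk1, 0.83 for Scg5, 0.80 for Pam, 0.75 for Cadps2 and 0.73 for Pcsk1n. It was 0.55 for Pcsk2, 0.28 for Chgb, 0.14 for Chga and −0.62 for Cpe. These are descriptions over 7 points that include groups of 19 to 33 cells.

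Across single cells the correlations between the 10 genes were near 0. At equal depth, Pearson's r over the 45 pairs of genes ran from −0.04 to 0.10 in 2600 control cells and from −0.04 to 0.10 in 1812 heterozygous cells, with medians of 0.02 and 0.01. The highest were Scg2 with Scg5 (0.10, control) and Pcsk1n with Scg5 (0.10, heterozygous). Mean thinned UMIs per control cell ran from 0.013 (Cadps2) to 1.07 (Scg2). Counting noise in counts this sparse holds r near 0, so these values cannot decide whether the genes vary together. The variance of the thinned UMIs over their mean, which is 1 for pure counting noise, was 2.53 and 3.36 for Scg2, 1.33 and 1.36 for Pcsk1n, and between 0.99 and 1.26 for the other 8 genes. Scg2 varied the most from cell to cell of the 10 genes, with up to 55 and 125 UMIs in a single neuron-like cell. The same ratio was 1.89 and 2.28 within the Foxb1 gate and 2.40 and 3.35 in cells with no gate.

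The second question was whether the genes follow the amount of peptide transcript in a cell. Each cell was thinned to 857 UMIs, and the UMIs of 33 peptide hormone genes (of a list of 40) were summed and left out of the total. Pcsk1n, Scg5 and Pam were higher in cells rich in peptide UMIs, Cpe, Pcsk2 and Chga differed little, and Scg2 was lower at intermediate amounts. Comparing cells with 10 or more peptide UMIs (186 control and 55 heterozygous) with cells that have 0 (1093 and 627), 3 of the 8 genes with at least 30 UMIs were called higher in both libraries and 0 lower. The shares over 4152 genes were 3.88% higher and 7.59% lower.

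Pcsk1n stood at 1137 CPM of non-peptide UMIs (1070 to 1207) in control cells with 0 peptide UMIs, and at 1007 (924 to 1095) in the heterozygous library. It was nearly flat up to 9 peptide UMIs, at 1112 and 1144 in cells with 3 to 9. From there it was higher, at 1712 (1410 to 2060) and 1800 (1348 to 2354) in cells with 10 to 49, and 2358 (2034 to 2719) and 2473 (1741 to 3408) with 50 or more. The log2 ratio of 10 or more over 0 was 0.86 (0.67 to 1.05) and 1.01 (0.67 to 1.33). It was the one call that stayed when Avp and Oxt were taken out of the peptide sum (0.61 and 1.05), and when only cells with no gate were used (0.96 and 1.13). With rich cells taken as those with 5 or more peptide UMIs it was under 1.5-fold (0.51 and 0.57), and Pam was then the only call (1.00 and 2.13).

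Scg5 had ratios of 0.84 (0.60 to 1.08) and 1.14 (0.73 to 1.52), and 0.23 and 1.10 without Avp and Oxt in the sum. With cells thinned to 1583 UMIs, which leaves 196 and 106 peptide-rich cells, Scg5 was under 1.5-fold (0.58 and 0.47). Pam had ratios of 1.18 (0.36 to 1.93) and 2.79 (1.80 to 3.73) on 20 and 16 UMIs, and of 1.17 and 1.11 on 37 and 34 UMIs at the deeper thinning. Without Avp and Oxt, the control ratio of Pam was −1.70 on 1 UMI and the heterozygous ratio 2.88 on 11 UMIs. Of the peptide-rich cells, 95 of 186 control and 17 of 55 heterozygous cells belong to the Avp gate, so these ratios and those of the Avp gate rest in part on the same cells. Avp alone made up 62.1% and 38.0% of all peptide UMIs in neuron-like cells. Pcsk1 had ratios of 1.57 (−0.11 to 3.07) and 2.40 (0.88 to 3.77) on 6 and 7 UMIs, under the minimum. At the deeper thinning its ratios were 2.39 (1.16 to 3.73) and 1.51 (0.41 to 2.65) on 18 and 17 UMIs.

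**Figure D3:**
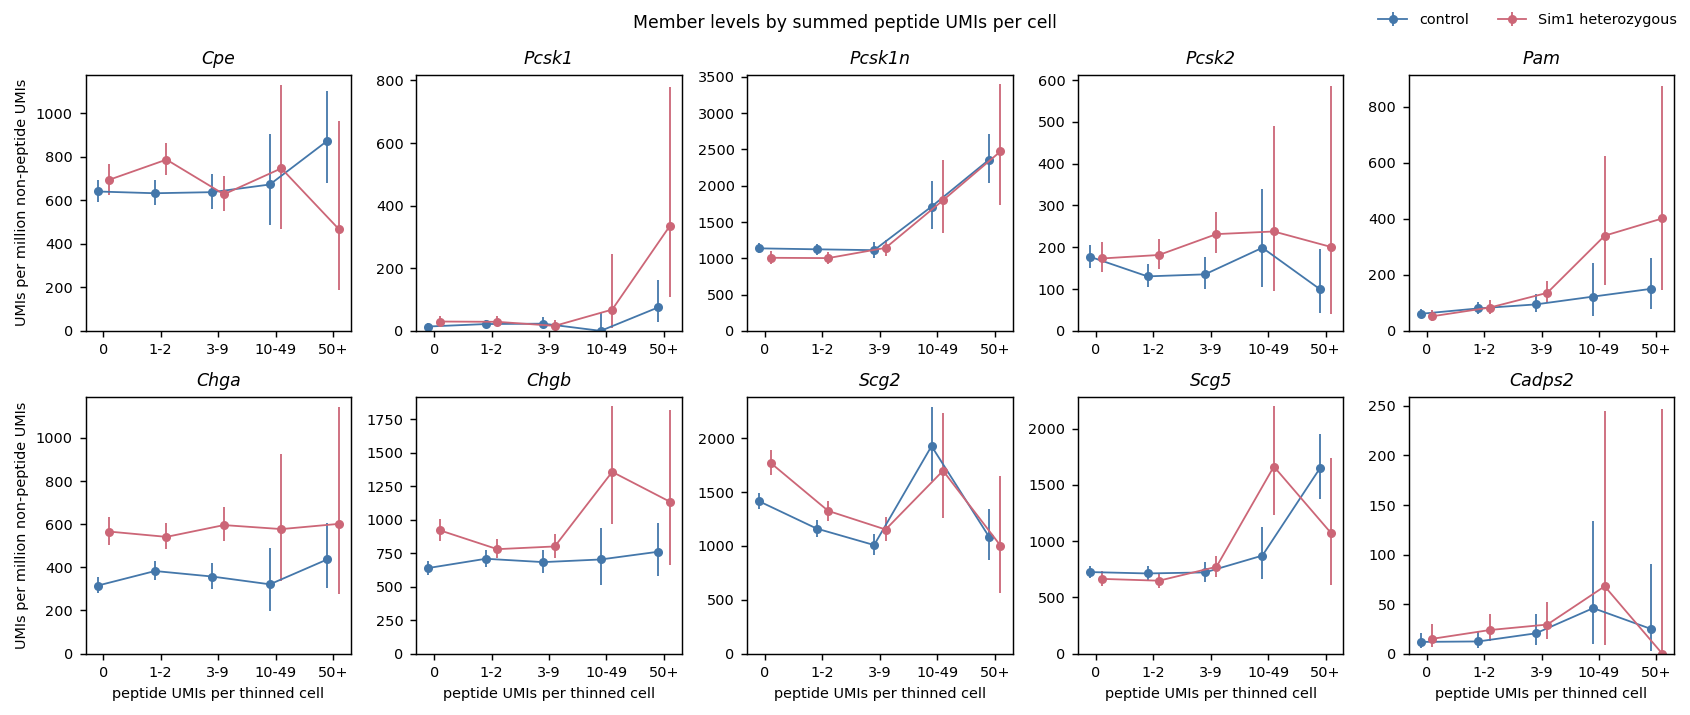
Level of each gene (y axis, CPM of non-peptide UMIs, from 0) by the summed peptide UMIs of the thinned cell (x axis, 5 bins), in the control (blue) and Sim1 heterozygous (red) library. Bars are exact Poisson 95% intervals, and the bins hold 1093, 861, 460, 78 and 108 control and 627, 689, 441, 35 and 20 heterozygous cells. Pcsk1n is flat up to 9 peptide UMIs and higher above, and Scg2 is lower at 3 to 9 than at 0.

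Over all neuron-like cells, Scg2 went the other way over the first 3 bins. The bins mix the gates, among them the Foxb1 gate with its low Scg2, and these 3 bins were not read within single groups. It stood at 1413 (1338 to 1492), 1161 (1084 to 1241) and 1007 (910 to 1112) in control cells with 0, 1 to 2 and 3 to 9 peptide UMIs. In the heterozygous library it stood at 1770 (1659 to 1886), 1325 (1234 to 1421) and 1152 (1046 to 1265). With 10 to 49 it stood at 1926 (1605 to 2294) and 1698 (1260 to 2238). The log2 ratio of 10 to 49 over 0 was 0.45 (0.17 to 0.71) in the control library, above the level at 0, and −0.06 (−0.50 to 0.35) in the heterozygous library. With 50 or more Scg2 stood at 1085 (869 to 1339) and 1002 (561 to 1653). The log2 ratio of 3 to 9 over 0 was −0.49 (−0.65 to −0.33) and −0.62 (−0.79 to −0.45), of which the second is past 1.5-fold. Over 10 or more, the ratio of Scg2 was 0.05 and −0.27.

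Spearman's rho was taken between a gene's share of the non-peptide UMIs of the thinned cell and the peptide UMIs of that cell. This rho was weak for every gene over all neuron-like cells. Thinned cells have the same total, so their non-peptide UMIs fall as their peptide UMIs rise. Among cells with equal UMIs of a gene, above 0, the share thus rises with the peptide UMIs, which pushes rho upward. This push is largest where peptide UMIs are many, as in the Avp and Oxt gates, and its size was not tested. The highest values over all neuron-like cells were 0.17 and 0.18 for Pcsk1n and 0.16 and 0.17 for Scg5, in 2600 and 1812 cells, and Scg2 had −0.04 and −0.08. In the 1623 and 918 cells with no gate, Scg2 had 0.02 and 0.01. Within the Avp and Oxt gates together, the highest was 0.26 for Scg5 in 115 control cells, and 0.70 for Scg2 in 20 heterozygous cells, where Pcsk1 had 0.38 and Pam 0.34. Scg2 had −0.15 in the 115 control cells. All points of a library share its preparation, and weak values in sparse counts, or values over 20 cells, are no finding.

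The third question was whether the genes differ between the genotypes. Over all neuron-like cells, 8 of the 10 genes were higher in the Sim1 heterozygous library and 2, Pcsk1n and Scg5, were lower, while 55.3% of all genes tested lay above 0. The differences were small: 2 genes were called higher (Chga and Cadps2) and 0 lower, while 7.89% of 14430 genes were called higher and 9.13% lower. The median log2 ratio was 0.33 over the 10 genes and 0.04 over all genes.

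Chga stood at 374 CPM (359 to 389) in the control and 564 CPM (544 to 584) in the heterozygous library, a log2 ratio of 0.59 (0.51 to 0.67, with 1 UMI added to each sum), just past 1.5-fold. At equal depth 24.2% and 36.7% of neuron-like cells had a Chga UMI, against 4.17% and 0% of the 48 and 28 glia-like cells at that depth (exact binomial intervals up to 14.3% and 12.3%). The other call, Cadps2, rested on 87 and 129 UMIs, at 13.5 CPM (10.8 to 16.7) and 24.3 CPM (20.3 to 28.9), a ratio of 0.84 (0.44 to 1.26). Chgb stood at 639 and 820 CPM, a ratio of 0.36 (0.30 to 0.42), and Scg2 at 1224 and 1419 CPM, a ratio of 0.21 (0.17 to 0.26).

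Among the enzymes, Pcsk2 stood at 142 CPM (133 to 152) and 198 CPM (186 to 210), a ratio of 0.48 (0.35 to 0.61). Pcsk1 stood at 22.2 CPM (18.7 to 26.2) and 32.4 CPM (27.8 to 37.6), a ratio of 0.54 (0.22 to 0.88). Cpe (655 and 739 CPM) had a ratio of 0.17 and Pam (78.6 and 96.5 CPM) one of 0.30. All 4 enzymes had intervals above 0 and none reached 1.5-fold.

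The 2 genes for binding proteins of the endoproteases lay below 0. Pcsk1n stood at 1231 CPM (1204 to 1258) and 1086 CPM (1058 to 1115), a ratio of −0.18 (−0.23 to −0.13), and Scg5 at 773 CPM (751 to 794) and 692 CPM (670 to 715), a ratio of −0.16 (−0.22 to −0.10). The mix of cells differed between the libraries, with 97 against 22 Avp cells, and its part in these ratios was not tested. Within cells with no gate, Pcsk1n had a ratio of −0.12 (−0.18 to −0.05) and Scg5 one of −0.16 (−0.25 to −0.08). The ratios of Pcsk1n and Scg5 were −0.08 and −0.08 in the Foxb1 gate and −0.55 and −0.06 in the Avp gate. They were 0.02 and 0.07 in the Trh gate, 0.32 and 0.22 in the Neurod6 gate, and 0.53 and 0.68 in the Crh gate. When the 6 groups with at least 20 cells in each library were given equal weight, an alternative chosen after the data were seen, the direction turned for both, to 0.05 for Pcsk1n and 0.14 for Scg5. Equal weights count the Crh gate of 23 and 32 cells as much as the 1726 and 1352 cells with no gate. Pcsk1 moved to 1.52 and Cadps2 to 0.23 under the same weights. Over the 10 alternatives run, Chga kept a ratio of 0.55 to 0.70, and Chgb one of 0.30 to 0.58.

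**Figure D4:**
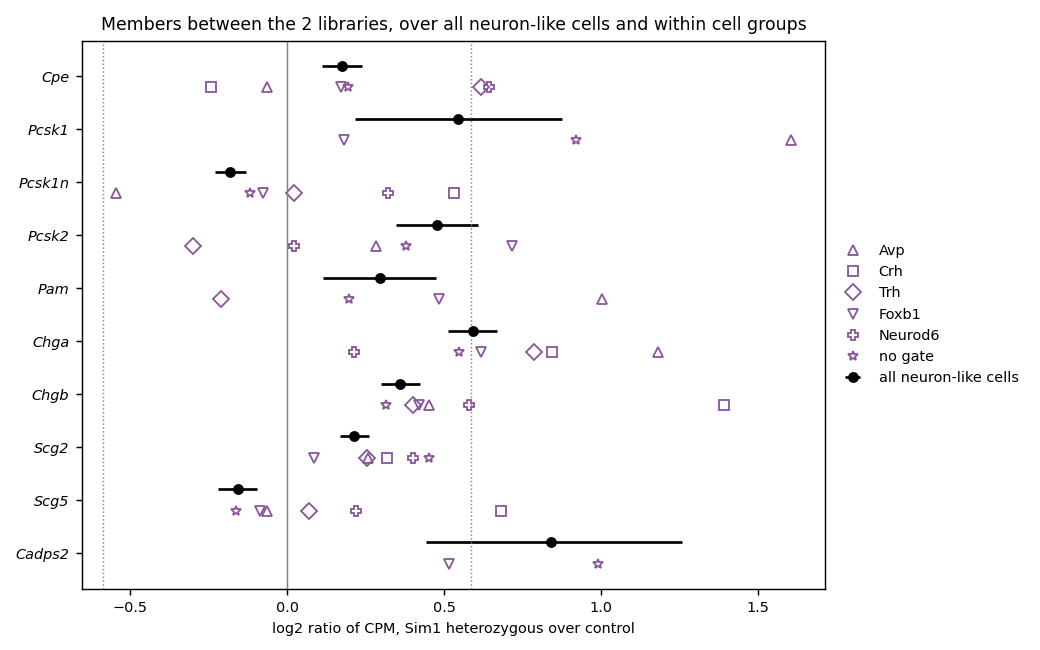
Log2 ratio of CPM, Sim1 heterozygous over control library (x axis), for each gene over all neuron-like cells (black points with exact binomial 95% intervals) and within each group with at least 20 cells in both libraries (open symbols, where the gene had at least 30 UMIs). Dotted lines mark 1.5-fold. The Chga symbols all lie above 0, and those of Pcsk1n lie on both sides.

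Within groups, 50 pairs of a gene and a group had at least 30 UMIs over both libraries, in the 6 groups with at least 20 cells in each. The ratio was above 0 in 40 of the 50, with the interval above 0 in 26 and below 0 in 3. No share of such intervals was taken over all genes. Intervals of counting error narrow as UMIs rise, so the 26 and 3 cannot be read against a background. Of the 50, 13 were called higher and 0 lower. Over all genes of these groups, weighted as the pairs are, 54.0% lay above 0, 11.9% were called higher (7.75 to 17.2% by group) and 9.60% lower. All 6 groups come from the same 2 libraries, so this count does not stand for 6 independent comparisons.

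Chga was the gene called in the most groups: Avp (1.18, 0.53 to 1.77), Crh (0.84, 0.15 to 1.61), Trh (0.78, 0.28 to 1.33) and Foxb1 (0.62, 0.47 to 0.77), with 0.55 (0.44 to 0.65) in cells with no gate and 0.21 (−0.31 to 0.72) in the Neurod6 gate. In the Foxb1 gate, where the ratio rests on 526 and 1228 UMIs, the level was 363 CPM (333 to 396) and 558 CPM (528 to 591). Pcsk2 was called there as well, at 133 CPM (115 to 153) and 219 CPM (200 to 239), a ratio of 0.72 (0.48 to 0.97). Within the Foxb1 gate 8.65% of genes were called higher and 7.92% lower.

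Within the Avp gate 3 genes were called higher, against 17.2% of 2164 genes higher and 12.7% lower: Pcsk1 with a ratio of 1.61 (0.73 to 2.43), Pam with 1.00 (0.12 to 1.77) and Chga. Pcsk1n was lower there by less than 1.5-fold, with a ratio of −0.55 (−0.90 to −0.23). In cells with no gate Pcsk1 (0.92, 0.46 to 1.39) and Cadps2 (0.99, 0.43 to 1.57) were called higher, where 7.75% of genes were called higher and 8.17% lower, and Scg2 had a ratio of 0.45 (0.40 to 0.51) on 5556 and 5081 UMIs. In the Foxb1 gate the Pcsk1 ratio was 0.18 (−0.69 to 1.17).

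Within the Crh gate of 23 and 32 cells 3 genes were called higher, against 16.6% of 1122 genes higher and 12.5% lower. Chgb had a ratio of 1.39 (0.83 to 2.04), Chga 0.84 and Scg5 0.68 (0.26 to 1.12), while Pcsk1n had 0.53 (0.23 to 0.84). The median UMIs of these cells were 3279 in the control and 1804 in the heterozygous library, so the groups also differed in depth, and the part of depth in these ratios was not tested. In the Trh gate Cpe (0.62, 0.21 to 1.05) and Chga were called higher, against 10.9% of genes higher and 8.86% lower. In the Neurod6 gate Cpe (0.64, 0.16 to 1.13) was, against 12.7% higher and 8.41% lower. The gates with under 20 heterozygous cells are outside the 50 pairs. In the Tcf7l2 gate (19 such cells) 0 of 7 genes were called, against 17.7% of 2911 genes higher and 14.2% lower, and in the Oxt gate (2 such cells) 1 of 4 was called higher and 1 lower, against 29% and 21.6% of 310.

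Other genes of the same pathways give the setting for these values. Of 24 further processing and granule genes, 20 had at least 30 UMIs, and between the libraries 2 of them were called higher (Furin and Pcsk7, named after their values were seen) and 0 lower, with a median log2 ratio of 0.21. The 4 with the most UMIs had ratios near 0: Resp18 0.05, Scg3 0.04, Atp6ap2 −0.07 and Ctsl −0.11. Of 21 measured genes for entry to the secretory pathway (translocon, signal peptidase, chaperones), 0 were called in either direction, with a median of 0.07. Over all 14430 genes tested, 7.89% were called higher and 9.13% lower between the libraries, so 2 of 20 lies near that share.

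In the Avp gate, 7 of these 21 secretory-entry genes were called higher in both libraries and 0 lower, with medians of 0.78 and 0.70 over cells with no gate. Among them were the chaperones Hspa5 (0.93 and 1.03), Canx (0.88 and 0.75) and Hsp90b1 (0.86 and 0.64). Of 17 measured genes of the processing and granule list, 3 were called higher there, Resp18 (1.90 and 1.65), Ptprn (1.46 and 1.52) and Scg3 (0.60 and 1.13), and 4 lower, Mbtps1, Qpct, Cadps and Ptprn2. Ptprn and these 4 were named after their values were seen. For the Avp gate, 4.88% of all 9492 genes tested were called higher and 19.8% lower, so 4 lower of 17 lies near that share. The median of the 10 genes themselves was 0.41 and 0.00 in that gate, and that of all genes −0.27 and −0.35.

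The genes whose profile over the gates was most like the mean profile of the 10 genes depended on 1 group. Over all 16 points (8 groups in 2 libraries) they were Mrpl33, 1500011B03Rik, Prkcsh, Zfr and Phyhipl, with Pearson's r between 0.80 and 0.85 among 2576 genes. Without the heterozygous Oxt group of 2 cells they were Tmem9, Hsp90b1, Ptprn, Gpx3 and Mt3, with r between 0.86 and 0.92. Ptprn encodes a granule membrane protein and Hsp90b1 a chaperone of the endoplasmic reticulum. The 16 points share 2 libraries and their depth, and the likeness is a description.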

How the data were processed

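The deposited tables give the authors' UMI counts per gene and cell, 1 library of pooled pups per genotype. Per the submitters' processing notes, bcl2fastq, Picard, STAR 2.6.0b, Seurat 3 and the build mm10 were used. No annotation, counter or strand setting is given in the sources used here. The merged table equals the 2 library tables. Cells with at least 300 genes were kept, no doublet caller was run, and neuron-like cells had more summed neuron than glia marker UMIs and at least 3 neuron markers. UMIs were summed per group and library (Python 3.11.15, numpy 2.4.6, scipy 1.17.1). Genotype ratios had 1 UMI added to each sum, gate ratios none; genes needed 30 UMIs. Ratio intervals were tested on simulated data for the comparison of genotypes over neuron-like cells (14230 genes with no change): 95.4% held the true value. The simulated sums held Poisson counting noise alone, which the intervals assume. This checks the code and does not show coverage in these data, where counts also vary between cells and animals. Thinning drew 857 UMIs per cell, leaving out shallower cells. The members, gates and lists were chosen with earlier results of these data known, and all 10 members are named. Gates were fixed as stated; alternatives are below.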

Additional observations from a re-analysis of the deposited data

Results flagged for a closer look

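For 2 genes, the ratio of the Sim1 heterozygous over the control library had intervals on opposite sides of 0 in different neuron groups, and the difference between groups was not tested, since each genotype has 1 library. Pcsk1n, the gene for the PC1/3 inhibitor proSAAS, had a log2 ratio of −0.55 in the Avp gate and −0.12 in cells that pass no gate, and of 0.53 in the Crh gate. Scg5, the gene for the PC2 chaperone 7B2, had −0.16 in cells that pass no gate and 0.68 in the Crh gate. The Crh gate holds 23 and 32 cells, with median depths of 3279 and 1804 UMIs.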

How the results depend on the processing

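No paired analysis was possible because each genotype has 1 library and no test was made. Among called pairs of gene and gate, Pcsk1 and Pam in the Avp gate and Pam in the Oxt gate stayed called in all 11 alternatives run, as did Scg2 lower in the Foxb1 and Oxt gates. Outside the wider gate, the heterozygous Oxt side held at most 2 cells, with 4 Pam UMIs and 1 Scg2 UMI in the main setting. At equal depth its Scg2 count was 0. The stay of the 2 Oxt calls thus says little, and 29% of all genes were called lower in that gate. Pcsk1 in the Oxt gate and Scg5 in the Avp gate stayed in 10, Pcsk1 in the Neurod6 and Foxb1 gates in 9, Scg2 in the Avp and Tcf7l2 gates and Chgb in the Tcf7l2 gate in 8, Pam in the Trh gate in 7 and in the Neurod6 gate in 4. Directions turned for Pam in the Neurod6 gate (−0.24 in the heterozygous library with higher gate thresholds, −0.58 in the control library at equal depth) and for Cadps2 there (0.95 at equal depth, on few UMIs). Between genotypes, 1 gene instead of 2 was called higher with peptide UMIs left out of the total and with scaling by the median ratio, where Chga was just under 1.5-fold. Within groups, 1 pair instead of 0 was called lower without the deepest 5% of cells and with the mean of single-cell CPM, and 2 with higher gate thresholds. Leaving out cells with at least 5 pituitary UMIs changed no count by over 1.5 times, but it left out few cells. In peptide-rich cells 1 gene instead of 3 was called higher without Avp and Oxt in the sum, with a bin of 5 or more, and in cells that pass no gate; Pam turned to −1.70 and −0.97 in the control library in the first and last of these. At 1583 UMIs per cell Scg5 was no longer called, and Pam had 1.11 in place of 2.79 in the heterozygous library. The cause was not tested. The wider Oxt gate and the equal weights were chosen after seeing the data. Pcsk1, Pam and Cadps2 in gates under 50 cells rest on 0 to 23 UMIs, which limits their ratios.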
